A study of Rattus norvegicus with 12 samples.

Results

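The comparison of electroacupuncture with sham needling after hepatectomy rests on 6 of the 12 circular RNA libraries of the study, namely 3 labelled HT+EA (hepatectomy with electroacupuncture) and 3 labelled HT+SEA (hepatectomy with sham electroacupuncture). The members were taken from the sample labels, and normalisation and tests were computed again from the counts of these 6 libraries alone. Per the study's methods, the animals were male Sprague-Dawley rats with no engineered allele named, 7 weeks of age when bought, and all rats of both groups lost about 20% of the left liver lobe under isoflurane. In HT+EA, needles on one side at the acupoints ST36 and SP6 carried a weak current for 30 min, 24 h before and again right after the operation, whereas in HT+SEA the same needles were placed and left unconnected to the stimulator. Both groups were habituated to the restraint device and held in it. Tissue for sequencing was collected 24 h after the last electroacupuncture session, so the comparison covers this time only. The other 6 libraries are 3 of hepatectomy alone (HT) and 3 of normal controls (NC), and they serve here only to place the levels.

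Hepatectomy is used in this model as a surgical stress. The paraventricular nucleus of the hypothalamus, the region usually abbreviated PVN, holds the neurons that release corticotropin-releasing hormone and so start the hormonal chain from pituitary to adrenal gland. The study itself spells out PVN as periventricular nucleus, and places neurons of this hormone in it. Circular RNAs (circRNAs) are loops made when the end of an exon is spliced back to the start of an exon that lies upstream. Having no free ends, they resist exonucleases and are long-lived, they are abundant in brain, and some carry sites that bind microRNAs (miRNAs), the short RNAs that guide repression of messenger RNAs. Both groups received surgery, restraint and needles, so the comparison addresses the current.

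The labels call the tissue only brain, with PVN in the sample titles. The circRNAs carry running identifiers with no host gene, position or strand, so no marker of the nucleus could be looked up and no circRNA is placed in the genome here. The study divided 12 rats among its 4 groups, but the labels do not say that a library is 1 rat, so p-values measure only the spread between these libraries, which may be technical. In bulk tissue, fewer cells of a type and less RNA per cell cannot be told apart.

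HT+EA and HT+SEA libraries did not differ in size or breadth beyond the spread within the groups. HT+EA libraries held 214475, 360524 and 216431 counts of circRNA reads, and HT+SEA libraries held 258005, 177533 and 192748. The largest library, HT+EA replicate 2, stood apart by its size, and the groups overlapped. HT+EA totals averaged 263810 ± 83762 and HT+SEA totals 209430 ± 42751 (SD, n = 3 each, exact permutation test, two-sided, p = 0.5), where 0.1 is the smallest p that 3 against 3 can give. A library listed 10613, 13945 and 11325 circRNAs in HT+EA and 12112, 10154 and 10309 in HT+SEA (exact permutation test, p = 0.5). Thinned to the smallest total, HT+EA libraries listed 10617 ± 515 and HT+SEA libraries 10338 ± 381 (SD, n = 3 each, exact permutation test, p = 0.6). Of all counts, 6.02% ± 0.038 in HT+EA and 5.95% ± 0.265 in HT+SEA fell on the 10 most abundant circRNAs (SD, n = 3 each, exact permutation test, p = 0.9). With 1 more measure given further down, the 5 exact tests gave adjusted p-values of 0.75 to 0.9.

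Profiles of libraries from the same group were about as alike as profiles from opposite groups. Over log2 CPM (counts scaled to a common library size), with 2 counts added, Pearson's r ran from 0.756 to 0.813 in the 6 pairs within a group, with a median of 0.791. It ran from 0.760 to 0.834 in the 9 pairs between the groups, with a median of 0.785. These pairs share libraries and are given as a description. Among 3572 tested circRNAs listed in all 6 libraries, the median SD over replicates was 0.31 on the log2 scale in both groups (0.305 in HT+EA and 0.313 in HT+SEA), so neither group was clearly the noisier.

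At the study's threshold of an unadjusted p below 0.05, 200 of 3893 circRNAs tested were called with edgeR's quasi-likelihood test, which is 5.14% of those tested and close to the 194.65 that the threshold alone would give. Of these, 88 (2.26%) were higher in HT+EA and 112 (2.88%) were lower. After Benjamini-Hochberg adjustment over all 3893, no circRNA was left below 0.05, the smallest adjusted p being 0.923. DESeq2, the tool of the study, called 54 of the same 3893 circRNAs (1.39%), 14 higher and 40 lower, with no adjusted call and a smallest adjusted p of 0.264. Limma-voom called 247 (6.34%), 89 higher and 158 lower, again with no adjusted call and a smallest adjusted p of 0.450. The 3 tools shared 45 calls in the same direction. A call below therefore means an unadjusted p below 0.05 with edgeR, and every call named has a Benjamini-Hochberg adjusted p of 0.923 in that test.

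**Figure D1:**
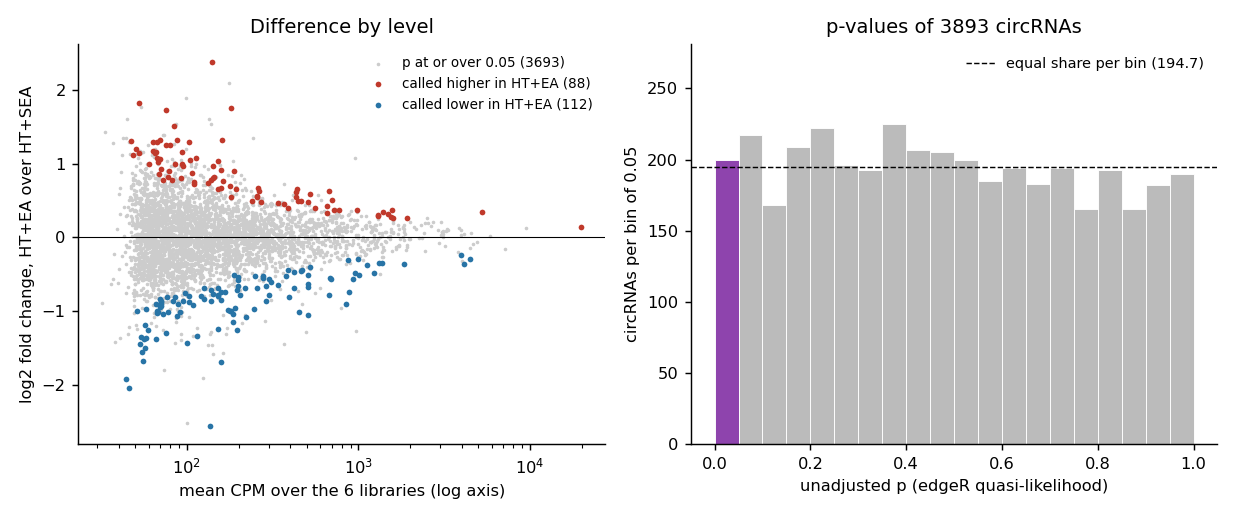
Left, the log2 fold change of HT+EA over HT+SEA for each of 3893 tested circRNAs against its mean CPM over the 6 libraries on a log axis, with 88 called higher in red, 112 called lower in blue and the rest in grey. Right, the number of circRNAs in bins of unadjusted p of width 0.05; the first bin, in purple, holds 200, and the median over the 20 bins is 194.

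The p-values were spread evenly, with 165 to 225 circRNAs in each of 20 bins between 0 and 1. Of the 200 calls, 195 were listed in all 6 libraries, beside 3572 of all 3893 tested. In the 195 calls, the fold between the groups ran from 1.11 to 3.80. In 184 of the 200 (92%) every HT+EA library lay on 1 side of every HT+SEA library, against 480 of all 3893 tested (12.3%), and since the call itself favours such circRNAs this share describes the calls only. By direction, 236 tested circRNAs (6.06%) lay wholly higher in HT+EA and 244 (6.27%) wholly lower. The median level of the calls was 158 CPM, against 115 CPM for all tested.

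The smallest p-values belonged to novel_circ_0009702 and novel_circ_0009704, both lower in HT+EA. The level of novel_circ_0009702 was 317, 290 and 386 CPM in HT+EA and 820, 677 and 547 CPM in HT+SEA. All HT+EA libraries lay below all HT+SEA libraries, with a gap between 386 and 547 CPM. The log2 fold change was -1.05 (SE 0.21, 95% interval -1.52 to -0.58), a 2.07-fold lower mean level. DESeq2 and limma-voom called it as well.

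For novel_circ_0009704, the levels were 690, 546 and 529 CPM in HT+EA against 1311, 1095 and 897 CPM in HT+SEA. The groups did not overlap here either. Its log2 fold change was -0.91 (SE 0.18, 95% interval -1.33 to -0.49), and it had the smallest adjusted p of the DESeq2 fit, 0.264. The identifier between them, novel_circ_0009703, was looked at after the values were seen. It stood at 111, 126 and 187 CPM in HT+EA and 321, 358 and 215 CPM in HT+SEA, with a log2 fold change of -1.08 (SE 0.29, 95% interval -1.74 to -0.41). All 3 consecutive identifiers were thus called lower, and whether they come from one gene could not be read from the table.

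The HT libraries, which did not enter the fit, held 51, 126 and 78 reads of novel_circ_0009702, and in CPM they reached from the HT+EA values into the HT+SEA values. Its mean was 544 ± 185 CPM (SD, n = 3) in HT and 446 ± 25.3 CPM (SD, n = 3) in NC. The mean level of novel_circ_0009704 was 868 ± 272 CPM (SD, n = 3) in HT and 797 ± 106 CPM (SD, n = 3) in NC, between the 588 ± 88.4 CPM (SD, n = 3) of HT+EA and the 1101 ± 207 CPM (SD, n = 3) of HT+SEA. By their means, the sham libraries were the highest of the 4 groups and the electroacupuncture libraries the lowest for both circRNAs. Both were picked for their gap between HT+EA and HT+SEA, which favours this order, so nothing is read from it. Single libraries did not all follow it, since HT replicate 3 of novel_circ_0009704, at 1182 CPM, lay above HT+SEA replicates 2 and 3.

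On the higher side, the smallest p among circRNAs with counts in all 6 libraries belonged to novel_circ_0003134. Its counts were low, at 17, 21 and 15 reads in HT+EA and 6, 4 and 2 reads in HT+SEA, or 83.0 ± 11.5 CPM (SD, n = 3) against 22.4 ± 8.78 CPM (SD, n = 3). The groups did not overlap. The fitted log2 fold change was 1.83 (SE 0.46, 95% interval 0.78 to 2.89). DESeq2 called this circRNA and limma-voom did not, and among HT libraries it was listed at 0, 14 and 6 reads.

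Next came novel_circ_0032831, at 679, 584 and 623 CPM in HT+EA and 406, 411 and 436 CPM in HT+SEA. Replicates of each group lay close together and the groups did not overlap. The log2 fold change was 0.59 (SE 0.15, 95% interval 0.24 to 0.94). In HT its mean was 464 ± 143 CPM (SD, n = 3), and in NC it was 597 ± 97.8 CPM (SD, n = 3), nearer to HT+EA.

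**Figure D2:**
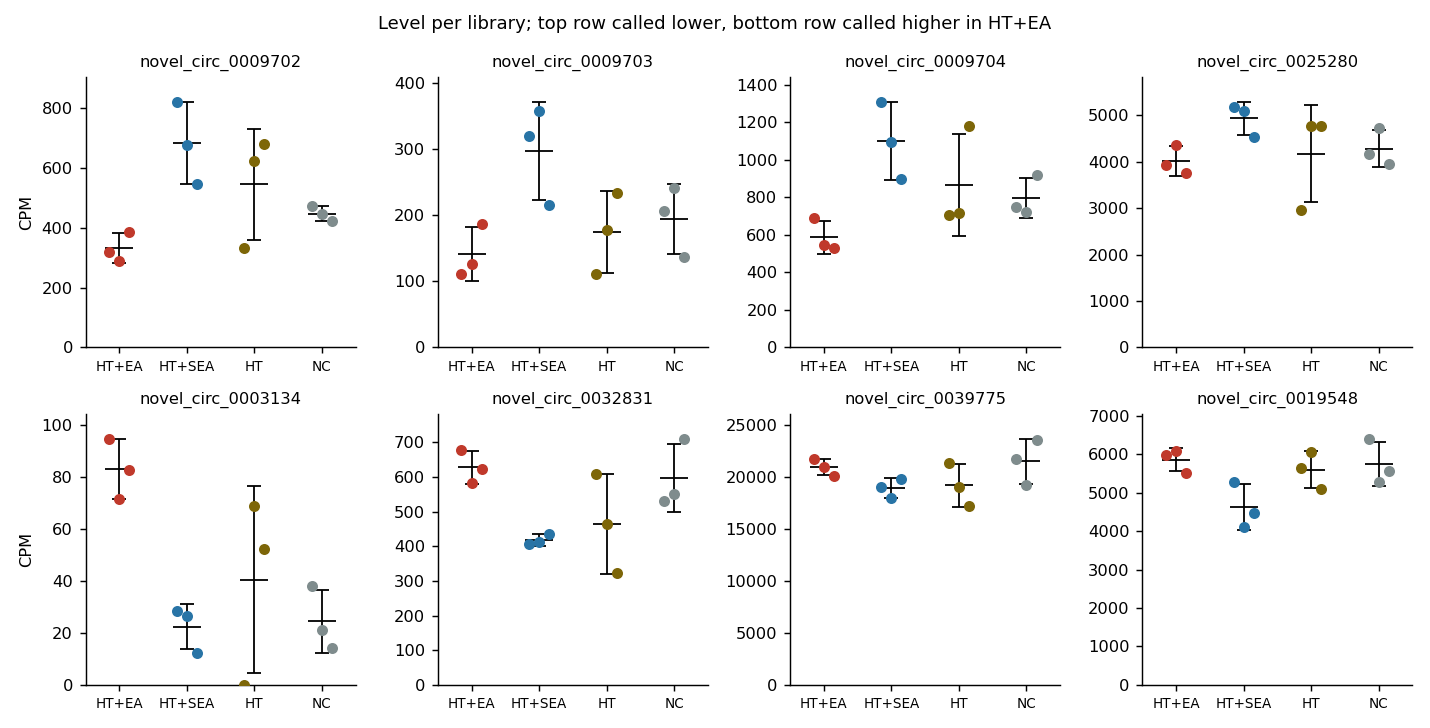
Level in CPM of 8 circRNAs in each library of the 4 groups, with points for libraries and black bars for the mean ± SD of 3 libraries. HT and NC did not enter the test, and their CPM come from a separate scaling over all 12 libraries. In the top row (novel_circ_0009702, novel_circ_0009703, novel_circ_0009704 and novel_circ_0025280) the HT+EA points lie below all HT+SEA points, and in the bottom row (novel_circ_0003134, novel_circ_0032831, novel_circ_0039775 and novel_circ_0019548) above them.

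Among the most abundant circRNAs, differences were small and some were called. The most abundant of all, novel_circ_0039775, had 21677, 20964 and 20110 CPM in HT+EA and 18999, 17916 and 19828 CPM in HT+SEA. All HT+EA libraries were higher, the nearest by 20110 against 19828 CPM. Its log2 fold change was 0.15 (SE 0.048, 95% interval 0.035 to 0.26), a 1.11-fold difference. The call held in 12 of 16 alternatives. It was lost without HT+EA replicate 1 (0.12) or HT+SEA replicate 2 (0.10). It was also lost with all 12 libraries (0.14) and among circRNAs listed in all 6 libraries (0.13). NC libraries held 21479 ± 2153 CPM (SD, n = 3) of novel_circ_0039775 and HT libraries 19197 ± 2051 CPM (SD, n = 3).

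Ranked 5 by abundance, novel_circ_0019548 had 5977, 6098 and 5514 CPM in HT+EA and 5286, 4121 and 4462 CPM in HT+SEA. The sham values were the lower ones without overlap. Here the log2 fold change was 0.34 (SE 0.098, 95% interval 0.12 to 0.56). HT and NC, with means of 5603 ± 486 and 5749 ± 580 CPM (SD, n = 3), lay near the 5863 ± 308 CPM (SD, n = 3) of HT+EA. The most abundant circRNA called lower, novel_circ_0025280, averaged 4012 ± 314 CPM with electroacupuncture and 4932 ± 356 CPM with sham needling (SD, n = 3 each), with a log2 fold change of -0.30 (SE 0.087, 95% interval -0.49 to -0.10).

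The remaining 3 of the 5 most abundant circRNAs were not called, and their groups overlapped. For novel_circ_0034471 the log2 fold change was 0.12, with a 95% interval of -0.17 to 0.42. For novel_circ_0010853 it was -0.16, with an interval of -0.36 to 0.037. For novel_circ_0016268 it was 0.023, with an interval of -0.22 to 0.27. These intervals stay well inside a 2-fold difference in either direction.

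Some calls rested on libraries in which a circRNA was listed at 0. The table held no value of 1, so every count was 0 or at least 2, and a circRNA at 0 may have been missed by the caller in that library. Reads of novel_circ_0018563 numbered 41, 56 and 51 in HT+EA and 0, 10 and 12 in HT+SEA (log2 fold change 2.38, SE 0.71, 95% interval 0.76 to 4.01). Reads of novel_circ_0004902 numbered 14, 0 and 9 in HT+EA and 58, 43 and 22 in HT+SEA (log2 fold change -2.56, SE 0.80, 95% interval -4.39 to -0.73). In both, the groups did not overlap, and the library at 0 lay on the low side.

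The other pair chosen by the same rule was weaker. For novel_circ_0019565, reads were 23, 29 and 23 in HT+EA and 14, 5 and 0 in HT+SEA (log2 fold change 1.73, SE 0.68, 95% interval 0.17 to 3.29). For novel_circ_0038727, they were 4, 8 and 0 in HT+EA and 15, 12 and 12 in HT+SEA (log2 fold change -2.04, SE 0.70, 95% interval -3.64 to -0.44). DESeq2 called both of these and limma-voom neither. The log2 fold change of novel_circ_0019565 was 1.19 without HT+SEA replicate 3, the library at 0, and 2.81 without HT+SEA replicate 1, and its call was lost without HT+EA replicate 1 or 3 and without HT+SEA replicate 2. That of novel_circ_0038727 lost its call without any 1 of the HT+SEA replicates, at -2.02 to -2.11.

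No circRNA had at least 10 reads in all 3 libraries of one group and 0 in all 3 of the other. Counts that switched between libraries of the same group were common. In 169 circRNAs, a library was listed at 0 where at least 20 reads were expected from the other 5 libraries, and there were 207 such entries. Per library they numbered 36.3 ± 4.04 in HT+EA and 32.7 ± 5.03 in HT+SEA (SD, n = 3 each, exact permutation test, p = 0.5). The extreme case, novel_circ_0009707, had 359, 558 and 0 reads in HT+EA and 382, 0 and 0 in HT+SEA, and novel_circ_0018587 had 0, 486 and 0 against 473, 290 and 0. Of 155 tested circRNAs with such an entry, 3 were called, beside 200 of all 3893 tested (5.14%). A switch within a group widens its spread and so works against a call, and nothing is read from this count.

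The levels in HT and NC give each call a place among the 4 groups. Over the 88 circRNAs called higher, the median log2 difference was 0.32 for HT+EA against HT and -0.29 for HT+SEA against HT. Over the 112 called lower, it was -0.41 for HT+EA against HT and 0.30 for HT+SEA against HT. Over all tested circRNAs, these medians were 0.026 and 0.013. The calls were selected on the gap between HT+EA and HT+SEA, which by itself favours opposite signs around HT. Both comparisons also share the HT libraries, so the values are only set side by side and nothing is read from the signs. The mean of HT lay between those of HT+EA and HT+SEA in 68 of the 88 (77.3%) and in 82 of the 112 (73.2%), against 1197 of all 3893 tested (30.7%). The call selects wide gaps, which take in more HT values by themselves, and nothing is read from the difference in these shares. The median log2 difference between HT and NC was -0.043 for circRNAs called higher and 0.098 for those called lower, beside -0.017 over all tested.

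The width of the intervals differed with the level of the circRNA. In the least abundant of 5 equal bins, with a median of 58.0 CPM, the median half-width of the 95% interval was 1.11 on the log2 scale, and 4.24% of the circRNAs had an interval inside a 2-fold difference. In the most abundant bin, with a median of 520 CPM, the half-width was 0.43, and 90.1% had such an interval. Over all 3893 the share was 42.8% (1668 circRNAs). For these, a 2-fold difference in either direction lies outside the interval of the test. For the others, the interval reached a 2-fold difference, and the absence of a call does not show equal levels.

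**Figure D3:**
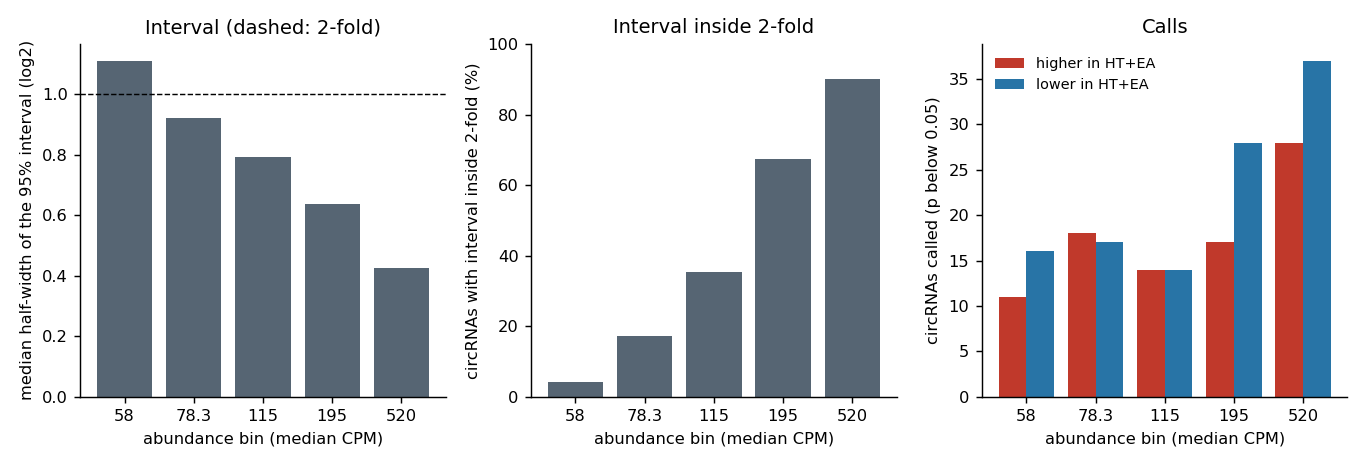
Precision and calls in 5 equal bins of abundance, labelled by median CPM. Left, the median half-width of the 95% interval of the log2 fold change, with a dashed line at a 2-fold difference, falling from 1.11 to 0.43; middle, the percentage of circRNAs whose interval lies inside 2-fold, rising from 4.24% to 90.1%; right, the number called higher (red) and lower (blue) in HT+EA.

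Calls were more frequent where counts were higher. From the least to the most abundant bin, 27, 35, 28, 45 and 65 circRNAs were called, or 3.47%, 4.50%, 3.59%, 5.78% and 8.34% of each bin. In the top bin, 28 were higher and 37 were lower in HT+EA. No bin had a median log2 fold change farther from 0 than 0.021.

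The study traced 44 circRNAs of this nucleus into predicted networks of circRNA, miRNA and mRNA, and calls them node circRNAs. They fall into those it lists as up (HTu, 6) or down (HTd, 16) in HT against NC, and those up (EAu, 13) or down (EAd, 9) in HT+EA against HT. The EAu and EAd lists were chosen on the same HT+EA libraries that are compared here with HT+SEA, so they are not independent evidence of a direction. The HTu and HTd lists take their direction from HT against NC, but the study kept node circRNAs only where they connect to mRNAs with opposite changes after surgery and after electroacupuncture, so HT+EA rats entered that choice too. Of the 44, 25 passed the filter on low counts, and 6 of these were called, 2 higher and 4 lower, where 5.14% of all tested circRNAs were called, 2.26% higher and 2.88% lower. DESeq2 called 4 of the 25, of which novel_circ_0004902, novel_circ_0030155 and novel_circ_0011899 were shared with edgeR. The other 19 had mean counts of 0 to 17.3 over the 6 libraries and were not tested.

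The predicted partners of the called node circRNAs show which miRNAs the study ties to them. Neither binding nor miRNA levels were measured in these libraries. The network names 8 partners of the circRNAs called here, and mature sequences of 6 are shown so that their seeds can be compared. They are from RefSeq (rat assembly GRCr8), 5′ to 3′, with the seed, bases 2 to 8, in capitals, and miR-187-5p and miR-486 are named only.
miR-205: uCCUUCAUuccaccggagucugu
miR-296-3p: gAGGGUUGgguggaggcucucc
miR-873-3p: gAGACUGAcaaguucccggga
miR-138-5p: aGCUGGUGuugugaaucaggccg
miR-33-5p: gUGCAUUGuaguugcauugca
miR-667-5p: cGGUGCUGguggagcagugagcac

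The mature sequences of miR-205, miR-296-3p and miR-873-3p, each paired with 1 EAd circRNA, lie on the minus strand at chr13:107564588-107564610, chr3:183470079-183470100 and chr5:56153114-56153134. The sequence of miR-138-5p, paired with an HTd circRNA, occurs at chr8:131178456-131178478 on the plus strand and at chr19:10680184-10680206 on the minus strand. Those of miR-33-5p and miR-667-5p, both paired with 1 HTu circRNA, lie on the plus strand at chr7:115593957-115593977 and chr6:134555351-134555374. All 6 differ in their seeds, so the called node circRNAs have no printed seed in common.

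The EAd list held 4 of the 6 calls, all lower in HT+EA (background 2.88% lower), and DESeq2 called 2 of these 4, without novel_circ_0002630 and novel_circ_0029061. All 5 of its tested members had a negative log2 fold change, with a median of -0.81, beside a median of 0.011 over all circRNAs tested (1997 positive, 1896 negative). Its most abundant member, novel_circ_0030155, the predicted partner of miR-187-5p and miR-486, had 189, 389 and 270 CPM in HT+EA and 443, 577 and 486 CPM in HT+SEA. The groups did not overlap, with HT+EA replicate 2 the highest of its group. Its log2 fold change was -0.81 (SE 0.26, 95% interval -1.41 to -0.20), and the call was lost without HT+SEA replicate 2, at -0.70.

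Levels of novel_circ_0002630, the partner of miR-205, were 211, 218 and 237 CPM in HT+EA and 297, 385 and 375 CPM in HT+SEA (log2 fold change -0.66, SE 0.19, 95% interval -1.10 to -0.22). Those of novel_circ_0029061, the partner of miR-873-3p, were 89.0, 68.3 and 44.1 CPM against 127, 113 and 129 CPM (log2 fold change -0.87, SE 0.33, 95% interval -1.63 to -0.11). Neither circRNA overlapped between the groups. The call of novel_circ_0029061 held in 9 of 16 alternatives and was lost without HT+EA replicate 2 or 3 and without HT+SEA replicate 1 or 3, at -0.67 to -0.88. The partner of miR-296-3p is novel_circ_0004902, given above with its library at 0. The HT means of these 4 circRNAs, 487 ± 79.4, 376 ± 69.4, 165 ± 8.17 and 172 ± 65.2 CPM (SD, n = 3) in the order novel_circ_0030155, novel_circ_0002630, novel_circ_0029061 and novel_circ_0004902, all lay above their HT+EA means, as the choice of the list requires. The sham means of novel_circ_0030155 and novel_circ_0002630, 502 ± 68.5 and 352 ± 48.1 CPM (SD, n = 3), lay within 1 SD of those HT means. That of novel_circ_0029061, 123 ± 8.93 CPM (SD, n = 3), was below HT, and that of novel_circ_0004902, 231 ± 83.5 CPM (SD, n = 3), was above it. The fifth tested member, novel_circ_0009519, was not called, with a log2 fold change of -0.35 and a 95% interval of -0.82 to 0.12. The 4 members not tested had mean counts of 0 to 9.83.

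In the EAu list no member was called. Of 9 tested members, 8 had a positive log2 fold change and 1 a negative one, with a median of 0.30 and a range of -0.097 to 0.72. The smallest p belonged to novel_circ_0012139, with 16, 20 and 17 reads in HT+EA and 8, 8 and 10 reads in HT+SEA. Its groups did not overlap in CPM, and its log2 fold change was 0.72 (SE 0.37, 95% interval -0.12 to 1.56). The most abundant member, novel_circ_0016268, had 4925, 6354 and 6485 CPM in HT+EA and 5423, 5926 and 6146 CPM in HT+SEA. These overlapped fully, and both means, 5921 ± 865 and 5832 ± 371 CPM (SD, n = 3), were above the 4744 ± 1312 CPM (SD, n = 3) of HT.

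From the lists of surgery, 1 HTu and 1 HTd circRNA were called by edgeR, both higher in HT+EA (background 2.26% higher). DESeq2 called the HTd circRNA, not the HTu circRNA, and instead called novel_circ_0020665 (HTu), lower in HT+EA. The HTu circRNA novel_circ_0012228, the partner of miR-33-5p and miR-667-5p, had 184, 208 and 226 CPM in HT+EA and 174, 73.0 and 43.0 CPM in HT+SEA. HT+SEA replicate 1 nearly reached the HT+EA values, and the groups did not overlap. The log2 fold change was 1.04 (SE 0.44, 95% interval 0.030 to 2.06). The call held in 9 of 16 alternatives: it was lost with DESeq2, with all 12 libraries, without any 1 of the HT+EA replicates and without HT+SEA replicate 2 or 3 (0.87 and 0.70), while without HT+SEA replicate 1 the log2 fold change was 1.82. Its level was 232 ± 65.5 CPM (SD, n = 3) in HT and 91.1 ± 63.2 CPM (SD, n = 3) in NC.

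The HTd circRNA novel_circ_0011899, the partner of miR-138-5p, had 267, 133 and 292 CPM in HT+EA and 94.3, 33.2 and 141 CPM in HT+SEA. Here the groups overlapped, since HT+EA replicate 2 was below HT+SEA replicate 3. This is a log2 fold change of 1.33 (SE 0.49, 95% interval 0.22 to 2.43), and the call was lost with all 12 libraries and without HT+EA replicate 1 or 3 or HT+SEA replicate 1 or 2, at 0.95 to 1.36. It was listed at 2, 29 and 0 reads in HT and at 35, 53 and 27 reads in NC.

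The most abundant HTu and HTd circRNAs were not called by edgeR. For novel_circ_0020665 (HTu), the levels were 445, 549 and 369 CPM in HT+EA and 415, 617 and 1192 CPM in HT+SEA. HT+SEA replicate 3 was far above the other sham libraries. The log2 fold change was -0.69 (95% interval -1.51 to 0.12), but it was called in 5 of 16 alternatives, DESeq2 among them. Without HT+SEA replicate 3 it was -0.17, and without HT+SEA replicate 1 it was -0.99 and called. For novel_circ_0022464 (HTd), it was -0.050, with a 95% interval of -0.44 to 0.34. Over the lists, 4 of 6 HTu circRNAs were tested, with a median log2 fold change of 0.35, and 7 of 16 HTd circRNAs, with a median of -0.050.

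**Figure D4:**
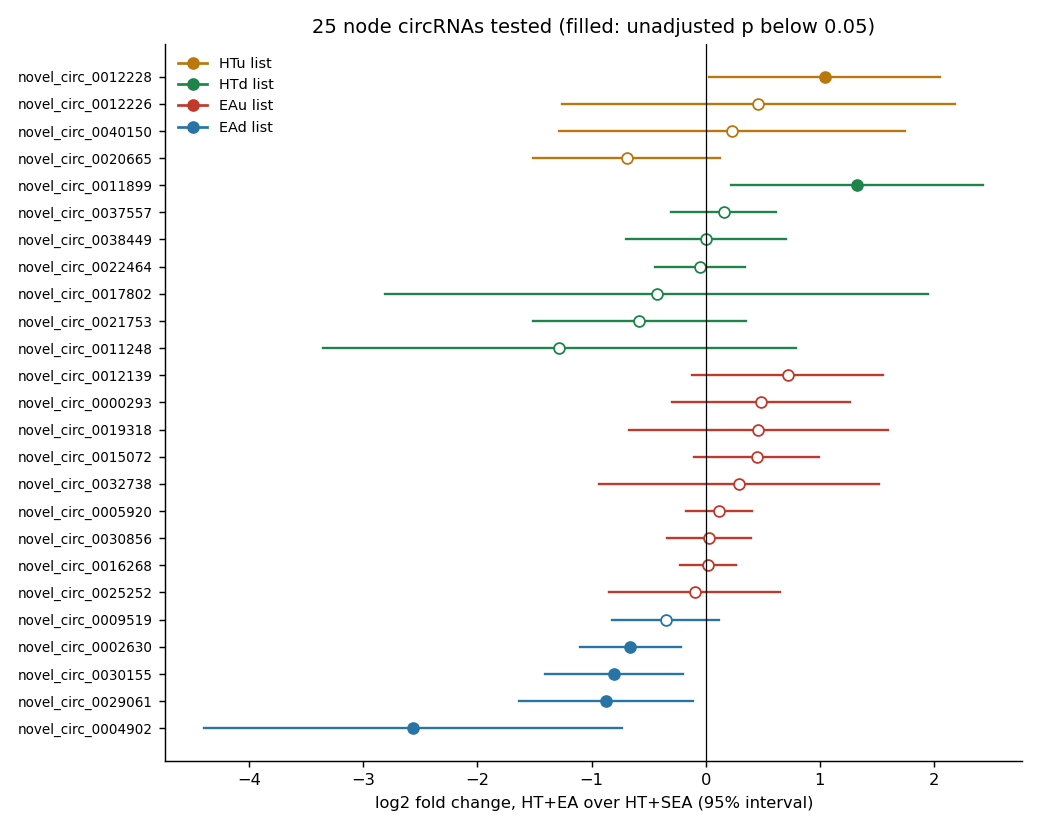
Log2 fold change of HT+EA over HT+SEA for the 25 node circRNAs tested, with 95% intervals from the edgeR fit, coloured by list; filled points have an unadjusted p below 0.05. All 5 EAd circRNAs lie left of 0, 8 of 9 EAu circRNAs lie right of it, and the called HTu and HTd circRNAs lie at 1.04 and 1.33.

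Many of the calls were lost when 1 library was left out, in fits that hold fewer libraries and were filtered anew. When each of the 6 libraries was left out in turn, 160 to 231 circRNAs were called, and between 93 and 117 of the 200 kept their call and direction. HT+SEA replicate 2 was the library whose removal kept the fewest. In all 6 of these fits, 44 of the 200 were kept, 17 higher and 27 lower, and 27 of the 44 were also called by DESeq2 and limma-voom, 7 higher and 20 lower. Among the named circRNAs, novel_circ_0009702, novel_circ_0009703, novel_circ_0009704, novel_circ_0032831 and novel_circ_0019548 were called under all 16 alternatives run, the fits without 1 library and the other tools included. These alternatives reuse the libraries from which the circRNAs were chosen, so they are not a replication.

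**Figure D5:**
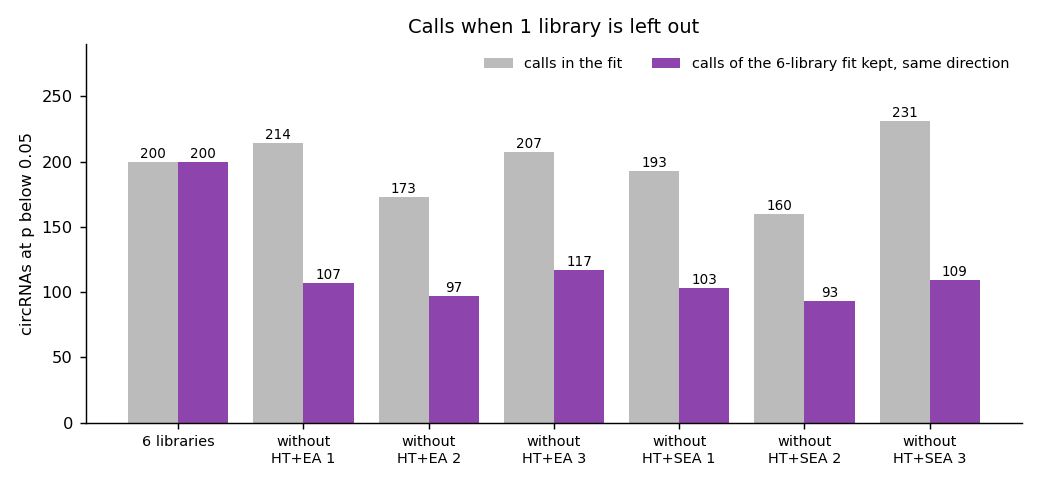
Number of circRNAs called (unadjusted p below 0.05) in the 6-library fit and without each library in turn (grey), and the number of the 200 calls that kept call and direction (purple). The kept number lies between 93, without HT+SEA replicate 2, and 117, without HT+EA replicate 3.

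The absence of adjusted calls depended on the circRNAs entered. When the test was limited to the 3572 circRNAs listed in all 6 libraries, 253 were called (7.08%), 97 higher and 156 lower, and novel_circ_0009702 and novel_circ_0009704 reached an adjusted p of 0.0377 with edgeR (Benjamini-Hochberg). With no filter, 49 of 19415 passed the adjustment, of which 44 were listed at 0 in at least 1 library. The 5 others included novel_circ_0009702 and novel_circ_0009704, with Benjamini-Hochberg adjusted p-values of 0.00485 and 0.00285 in that edgeR fit. They also included novel_circ_0021522, at 0.00263, where 1 library stood out (6, 98 and 11 reads in HT+EA, 7, 5 and 5 in HT+SEA). The same unfiltered edgeR fit gave an adjusted p of 4.19e-06 to novel_circ_0009707, which switched within both groups. Its unadjusted p in the filtered edgeR fit was 0.527. Adjusted p-values of the unfiltered fit are therefore given as a description, and no weight is put on them. With a mean count of at least 2, edgeR gave no adjusted call, the smallest adjusted p being 0.999. Without circRNAs at 0 where 20 reads were expected, it gave none either, the smallest being 0.278. DESeq2 and limma-voom, on the 3893 circRNAs, gave no adjusted call.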

How the data were processed

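Total RNA of the nucleus went into strand-specific libraries that were read on Illumina instruments. The study's methods name mRatBN7.2 as the rat assembly, with HISAT2 and featureCounts, for its sequencing data in general, whereas the submitters' processing notes list GRCh38 and hg38, which are human builds. Which program called the circRNAs is not given in the sources used here. Raw read counts of 21914 circRNAs in each library were deposited by the authors, neither normalised nor pooled; 12 further columns of values per sample were not used.

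Groups came from the labels. The circRNAs of the 6 HT+EA and HT+SEA libraries were filtered with filterByExpr (minimum count 10, minimum total 15), which kept 3893 (17.8%) holding 82.1% to 84.1% of each library's counts. They were scaled by TMM (factors 0.990 to 1.009) and tested two-sided with edgeR 4.0.16 (glmQLFit, glmQLFTest; R 4.3.3). The common biological coefficient of variation was 28.7%. Standard errors and 95% intervals were derived from the F statistics. DESeq2 1.42.0 and limma 3.58.1 (voom) were run on the same circRNAs. CPM values are counts scaled to a common total over tested circRNAs after TMM. For equal depth, libraries were thinned 20 times to 177533 reads, with values under 2 taken as 0. Single values per library were compared by exact permutation tests. Totals are reads of called circRNAs, not the whole sequencing depth, and reads without molecular identifiers are not independent molecules. Each library counted as 1 sample. Replicate libraries differed by more than sampling noise (chi-square per degree of freedom 2.71 to 3.29 within groups), which does not show whether that spread is technical. The scripts were tested on simulated data.

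The comparison, the node lists and the rules were chosen with earlier results of these data known. Named circRNAs were the 2 with the smallest p in each direction among those listed in all 6 libraries and among those listed at 0 in at least 1; the most abundant call in each direction; the 5 most abundant; any present in 1 group and at 0 in the other; every called node circRNA; the most abundant tested member of each node list; and any adjusted call. Other circRNAs named were chosen after their values were seen. Alternatives were other scalings, filters and tools, a fit of all 12 libraries, a replicate block and each library left out.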

Additional observations from a re-analysis of the deposited data

How the results depend on the processing

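With no filter, 598 of 19415 circRNAs were called (328 higher, 270 lower), 49 of them at an adjusted p below 0.05, and 12 node circRNAs were called, and with a mean count of at least 2 there were 410 calls of 10753 (242 higher, 168 lower). In these fits 8.81% and 15.3% of intervals lay inside 2-fold. DESeq2 gave 54 calls (14 higher, 40 lower). Adjusted calls were 2 among circRNAs listed in all 6 libraries, and 0 to 1 when a library was left out: 1 without HT+EA replicate 2 (novel_circ_0011557), 1 without HT+SEA replicate 1 (novel_circ_0010960) and 1 without HT+SEA replicate 2 (novel_circ_0030443), each listed at 0 in 2 or more libraries. Without HT+SEA replicate 1 or 2 the calls were no longer mostly lower (98 higher against 95 lower, and 80 against 80). The labels do not say whether libraries with the same replicate number share anything else. Deviations of same-numbered libraries correlated at -0.080 to -0.017, and those of differently numbered libraries at -0.044 to 0.072. The replicate block gave 119 calls (50 higher, 69 lower). Other scalings left 200 and 201 calls and the fit of all 12 libraries 188. When each library was left out, the difference in the share of the 10 most abundant circRNAs, 0.0735 percentage points with all 6, ran from -0.0773 (without HT+SEA replicate 1) to 0.171. Log2 fold changes of 3 uncalled circRNAs turned sign there, that of novel_circ_0034471 running from -0.023 (without HT+EA replicate 2) to 0.23, that of novel_circ_0016268 from -0.056 to 0.135 (negative without HT+EA replicate 2 or 3 and without HT+SEA replicate 1) and that of novel_circ_0022464 from -0.17 to 0.102 (positive without HT+EA replicate 1 and without HT+SEA replicate 1). The causes were not tested. Intervals reached 2-fold for most circRNAs in the 3 less abundant bins, and whether depth or spread between libraries set them was not tested.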

Other observations

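The HT+EA libraries listed 3938 circRNAs that no HT+SEA library listed, and the HT+SEA libraries 2352 that no HT+EA library listed, beside the larger totals of HT+EA. None of them reached 10 reads in all 3 libraries of its group, but some were high in 2 libraries. Reads of novel_circ_0011557 were 306, 0 and 298 in HT+EA and 0 in all HT+SEA libraries, and those of novel_circ_0030443 were 0 in all HT+EA libraries and 181, 0 and 204 in HT+SEA, both picked after their values were seen.

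The identifiers around the smallest p-values were read together after the values were seen. While novel_circ_0009702, novel_circ_0009703 and novel_circ_0009704 were lower in each HT+EA library than in each HT+SEA library, novel_circ_0009706 had 44, 25 and 23 reads in HT+EA against 21, 25 and 25 in HT+SEA, with a log2 fold change of 0.11. A few identifiers on, novel_circ_0009707 switched between libraries in all groups with counts, at 0, 334 and 440 reads in NC and at 0 in all 3 HT libraries. Among 575 pairs of tested circRNAs with consecutive identifiers, 3 pairs had both members called in the same direction and 0 in opposite directions. The run from novel_circ_0009702 to novel_circ_0009704, which prompted the look, is itself counted in these 3 pairs. Of all tested circRNAs, 5.14% were called, and nothing is read from the number of pairs. Whether consecutive identifiers are neighbours in the genome was not tested.

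Some node circRNAs that the study lists as lower after surgery were also on in some libraries and at 0 in others of the same group. Reads of novel_circ_0011248 were 76, 0 and 84 in HT+EA and 141, 96 and 128 in HT+SEA, with 0 in all 3 HT libraries and 105, 96 and 128 in NC. Those of novel_circ_0035558 were 0, 68 and 36 in HT+EA, with 0 in all HT+SEA and all HT libraries and 38, 48 and 42 in NC.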
